A study of Mus musculus with 6 samples.

Results

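The SLC25 genes encode the mitochondrial carriers, and the members described here are all genes on the array whose symbol is Slc25a followed by a number. They numbered 44 of the 18193 genes measured, each read at whichever of its probe sets was brightest on average across the 6 arrays. RefSeq lists 47 such genes in the mouse, and the other 3 were not analysed here. Expression was measured in mouse leukaemias driven by the BCR-ABL1 fusion kinase, with 3 arrays of AID-/- leukaemia, which lacks activation-induced cytidine deaminase, and 3 of AID+/+ leukaemia, in which that enzyme is intact. Cells of both groups came from Balb/c mice, and the series asked how expression differs between leukaemias with and without the enzyme. The labels call the arrays biological replicates but name no animals, and if a group shares a source, its p-values reflect only technical spread. They also give no age, passage or vector, and do not say how many clones each leukaemia held.

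Carriers of this family sit in the inner mitochondrial membrane, with a few in other membranes, and share a fold made of tandem repeats. They exchange adenine nucleotides, phosphate, Krebs cycle acids, amino acids, cofactors and metals between the cytosol and the matrix, and so tie glycolysis, respiration, haem synthesis and one-carbon metabolism together. Dividing lymphoid cells depend on them for ATP export, for citrate used in lipid synthesis and for aspartate used in nucleotide synthesis.

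Of the 7 B-lineage markers measured, 0 lay below the median probe set on every array: Cd79a, Cd79b, Ebf1, Vpreb1 and Igll1 were at 10.57 to 13.24 on the log2 scale, and Pax5 was at 6.77 to 8.13. Blnk was at 12.33, 12.68 and 12.61 in AID-/- and 10.42, 10.60 and 10.33 in AID+/+ leukaemia, higher by 2.09 (SE 0.12), and the other 6 did not pass. Their summed level (log2 of their summed linear values) was 15.02 to 15.10 against 14.74 to 14.91. Sex-linked transcripts separated the groups, with Xist at 4.35 to 6.02 in AID-/- and 11.93 to 12.18 in AID+/+ arrays and Kdm5d at 7.62 to 7.74 against 2.42 to 2.68, so that the genotype effect cannot be told apart from one of sex. The Y-linked Eif2s3y was at 8.85 in AID-/- replicate 1 but at 3.67 and 2.71 in the other AID-/- arrays and 2.51 to 2.60 in AID+/+ arrays. Among the 12 myeloid markers measured, 5 had a positive difference, and the median difference was -0.15. Fcgr3, Lyz1 and Lyz2 passed and were higher in AID-/- leukaemia, by 2.11, 1.60 and 0.76. Of the 12, 3 were higher by at least 1 log2 unit: Fcgr3, Lyz1 and a marker that did not pass. The summed level of the 12 was 8.28 to 8.66 against 7.82 to 8.08. Of the 12, 7 lay below the median probe set on every array. The 8 erythroid markers, of which 0 passed, summed to 8.03 to 8.04 against 8.25, and the 8 markers of T and NK cells to 7.90 to 9.28 against 10.08 to 10.18. Among the latter, Cd2 was at 8.82, 5.88 and 8.28 against 9.81, 9.80 and 9.92, and 0 of the 8 passed. Only Cd2 of the 8 differed by at least 1 log2 unit, so the gap in their summed level rests mainly on it. Whether Cd2 was read from T and NK cells or from the leukaemia cells was not tested. The 11 stromal and endothelial markers, of which 0 passed, summed to 8.19 to 8.50 against 8.20 to 8.35. The part of other cells in the results was not tested, and in bulk samples fewer cells of a type and less RNA per cell cannot be told apart.

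Of the 44 carriers, 14 were higher and 3 were lower in AID-/- leukaemia, and 27 did not pass the test (limma, Benjamini-Hochberg adjusted p under 0.05 over all 18193 genes). The called share was 38.6% of the carriers, against 18.5% of all genes, with 10.1% of all genes called higher and 8.42% called lower. The groups did not overlap for 25 carriers, or 56.8%, against 36.5% of all genes. Both gaps were smaller among genes with a group mean above the median probe set. Of these, 43.2% of 37 carriers were called, against 28.1% of 11085 genes, and the groups did not overlap for 64.9% against 49.0%. The median difference, AID-/- minus AID+/+, was 0.17 on the log2 scale over the carriers and -0.03 over all genes. A positive difference was found for 28 of the 44 carriers and for 7978 of all 18193 genes. Without AID+/+ replicate 3, 11 carriers were called (9 higher, 2 lower), while 11.8% of all genes were. All 44 were tested, with no filter on low values, and 7 of them had both group means below the median probe set.

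**Figure D1:**
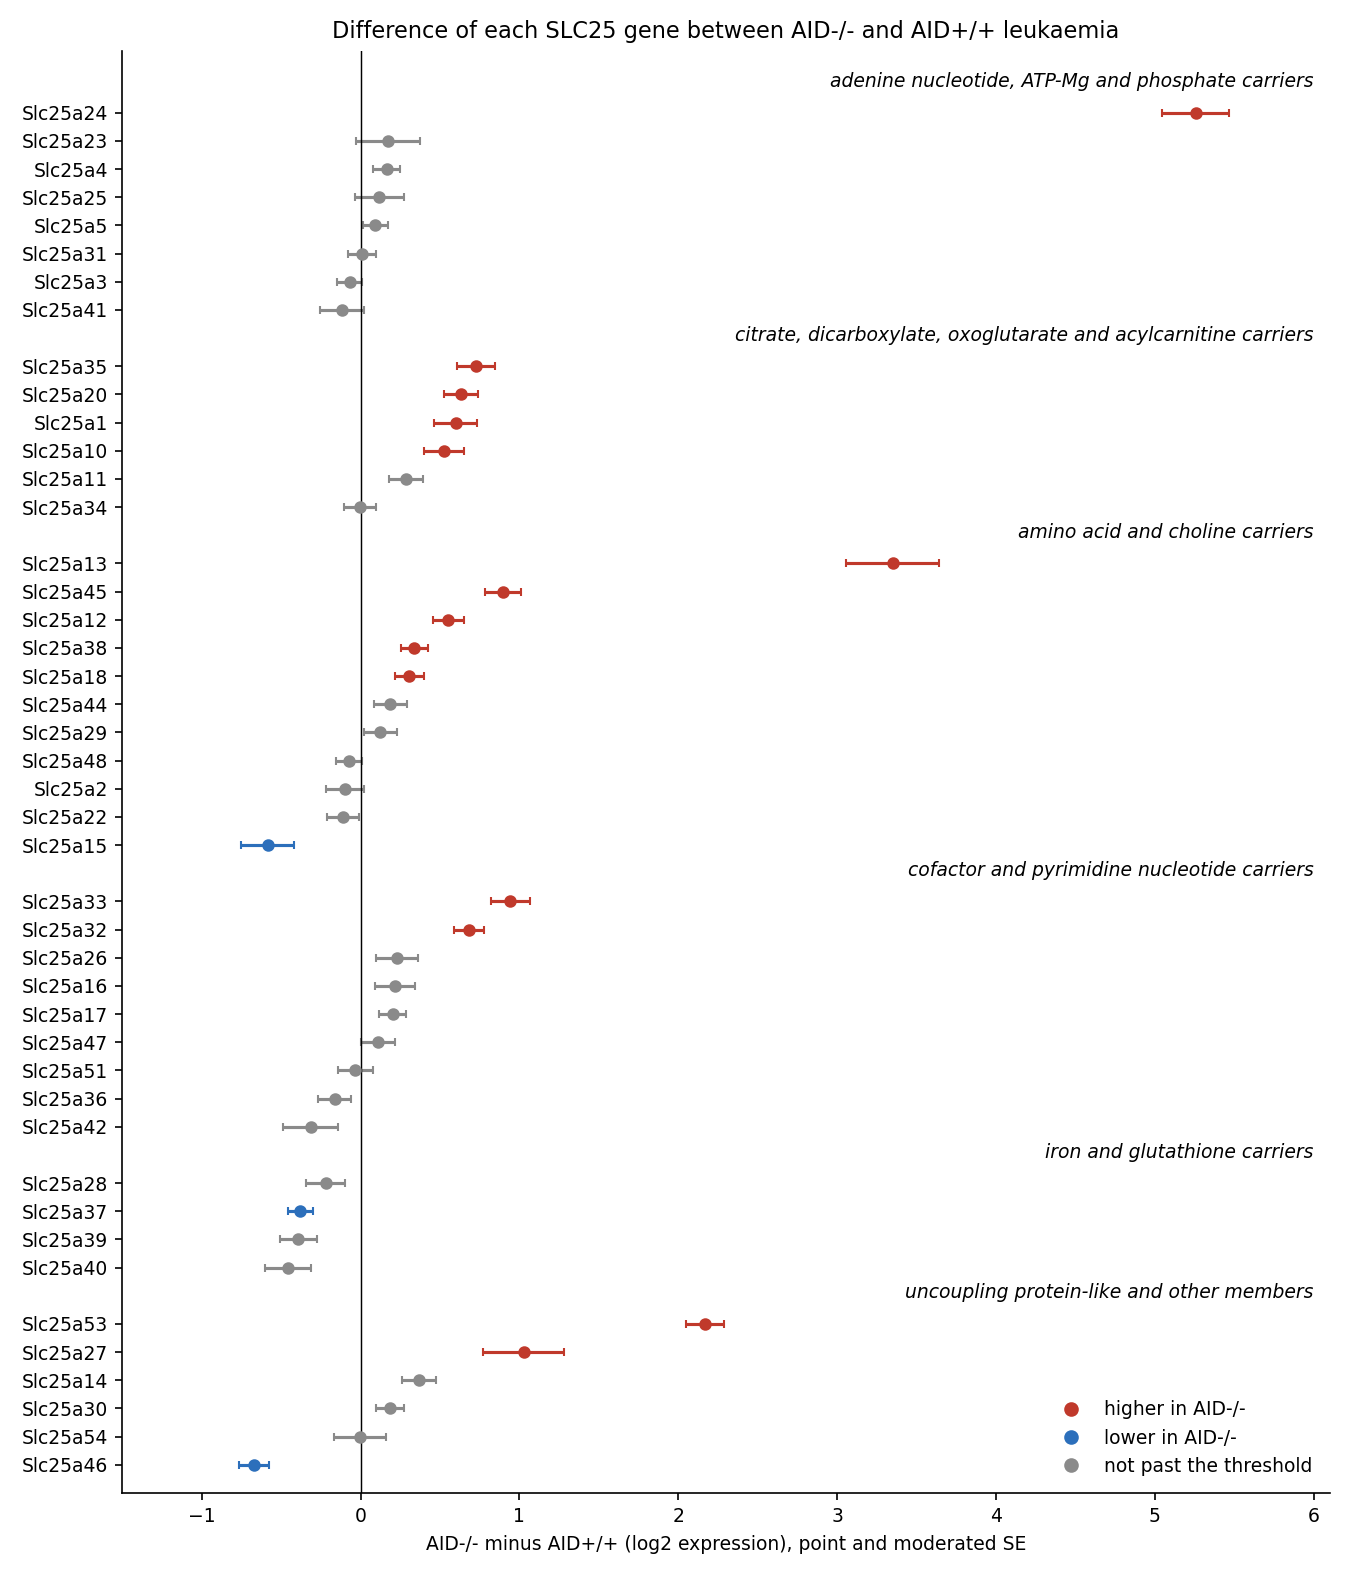
Difference of each of the 44 SLC25 genes between the groups (horizontal axis, AID-/- minus AID+/+, log2 expression), grouped by what the carriers transport; points are the fitted difference and bars the moderated SE. Slc25a24 at 5.26, Slc25a13 at 3.35 and Slc25a53 at 2.17 stand apart from the other members, while all 4 iron and glutathione carriers lie below 0. Of all 18193 genes, 7978 lie above 0.

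The largest difference in the family belonged to Slc25a24, a calcium-regulated carrier that exchanges ATP-Mg for phosphate and so adjusts the adenine nucleotide pool of the matrix. Its values were 8.15, 8.66 and 8.74 on the AID-/- arrays and 3.04, 3.07 and 3.68 on the AID+/+ arrays. The groups lay far apart, and the AID+/+ values were close to the lower end of the scale, which starts at 2.15. The difference was 5.26 (SE 0.21), or 38.2-fold, with a limma adjusted p of 4.49e-06, and its size is approximate because values near the lower end hold little order. It ranked 8 among all genes by difference in the direction of AID-/-. The second probe set of the gene was also higher, at 5.73, 6.39 and 6.31 against 3.21, 2.92 and 3.34, a difference of 2.99 (SE 0.19). Both probe sets thus agreed in direction but not in size.

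The other ATP-Mg/phosphate carriers did not pass the test. Slc25a25, which like Slc25a24 binds calcium, was at 7.02, 7.17 and 7.13 in AID-/- and 7.33, 6.73 and 6.90 in AID+/+ leukaemia, a difference of 0.12 with a 95% interval of -0.24 to 0.47. Slc25a23 was at 4.98, 5.07 and 4.94 against 5.33, 4.50 and 4.63. It did not pass (adjusted p = 0.622), but without AID+/+ replicate 1 the difference was 0.43 and passed (adjusted p = 0.0330). Slc25a41 lay at 3.34 to 3.84 on all arrays and did not pass. Slc25a54, another carrier of this kind in the mouse and the gene directly beside Slc25a24 on chromosome 3, stayed between 3.10 and 3.67 with a difference of -0.00 (95% interval -0.38 to 0.37), and is counted with the other members below.

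The ADP/ATP exchangers and the phosphate carrier, which supply ATP synthase with its substrates and export its product, were close between the groups. Slc25a5, the ADP/ATP exchanger of dividing cells, was at 13.14, 13.05 and 13.05 in AID-/- and 13.01, 13.01 and 12.95 in AID+/+ leukaemia. The arrays did not overlap, yet the difference of 0.09 (95% interval -0.09 to 0.28) did not pass, and its 8 probe sets differed by -0.00 to 0.10, with 0 called. Slc25a4, the heart and muscle exchanger, was at 11.73, 11.72 and 11.68 against 11.44, 11.62 and 11.57, a difference of 0.16 (95% interval -0.03 to 0.36). Slc25a3, which carries phosphate into the matrix, was at 12.60, 12.65 and 12.70 against 12.67, 12.77 and 12.72, a difference of -0.07 (95% interval -0.26 to 0.12). The germ cell exchanger Slc25a31 lay at 2.53 to 2.74 on all arrays. Of the 8 measured carriers of adenine nucleotides, ATP-Mg and phosphate, 1 was therefore higher, 0 were lower and 7 did not pass. That is a called share of 12.5%, against 18.5% of all genes. Slc25a5 and Slc25a4 are close in sequence, and whether their probe sets read both transcripts was not tested.

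Of the 6 carriers of Krebs cycle acids and acylcarnitines, 4 were higher and the other 2 missed the threshold. The called share was 66.7% of this small group, against 18.5% of all genes and 28.1% of those above the median probe set. Slc25a1, which exports citrate for lipid synthesis, was at 10.33, 10.06 and 10.29 in AID-/- and 9.83, 9.38 and 9.67 in AID+/+ leukaemia. The difference was 0.60 (SE 0.14, limma adjusted p = 0.0186). Leaving out AID-/- replicate 3, AID+/+ replicate 2 or AID+/+ replicate 3 ended the call, with adjusted p of 0.0520 to 0.0634. Slc25a10, which exchanges malate and succinate for phosphate, was at 7.53, 7.85 and 7.86 against 7.07, 7.39 and 7.21. It was higher by 0.53 (SE 0.13, limma adjusted p = 0.0239), its second probe set also by 0.52. Its adjusted p was 0.0647 to 0.0832 when AID-/- replicate 2 or 3, or AID+/+ replicate 1 or 3, was removed.

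Slc25a20 imports acylcarnitines for fatty acid oxidation. Its values were 8.52, 8.81 and 8.61 in AID-/- leukaemia and ran from 7.90 to 8.14 in AID+/+ leukaemia, so that every AID-/- array lay above every AID+/+ array. The difference was 0.63 (SE 0.11, limma adjusted p = 0.00553), and the other probe set was higher by 0.73. Slc25a35, whose substrate is less well known, was at 5.25, 5.55 and 5.42 against 4.50, 4.85 and 4.70, a difference of 0.73 (SE 0.12, limma adjusted p = 0.00528). All its AID+/+ values lay below the median probe set (4.89), and its call was lost in the limma fit without variance moderation (adjusted p = 0.0560). The oxoglutarate carrier Slc25a11, a part of the malate-aspartate shuttle, was at 9.28, 9.62 and 9.53 against 9.27, 9.19 and 9.12 and did not pass (adjusted p = 0.118), except without AID-/- replicate 1 (adjusted p = 0.0340). Slc25a34, listed beside Slc25a35, lay at 4.69 to 4.94 in both groups.

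**Figure D2:**
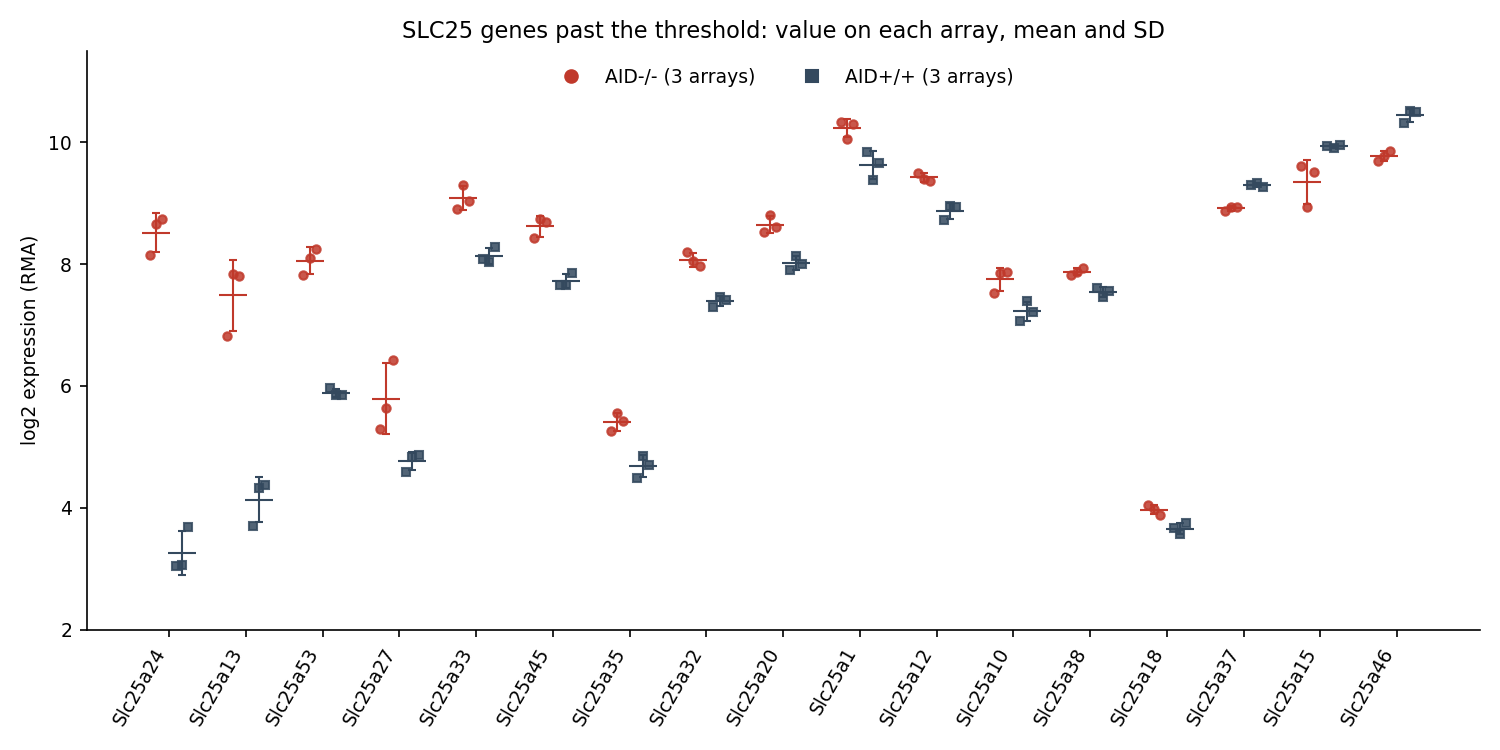
Value of the 17 called SLC25 genes on each array (vertical axis, log2 expression), with AID-/- arrays as circles and AID+/+ arrays as squares; the horizontal marks and bars are the mean and SD of 3 arrays. The groups do not overlap for any of the 17, which is largely built in because the calls rest on these same values. The AID+/+ values of Slc25a24 lie at 3.04 to 3.68.

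Amino acid carriers held 5 members that were higher and 1 that was lower out of 11. Called members made up 54.5% of this group, against 18.5% of all genes. Slc25a13 encodes citrin, the aspartate-glutamate exchanger best known from liver, which exports aspartate and drives the malate-aspartate shuttle. It was at 6.82, 7.84 and 7.80 in AID-/- and 3.71, 4.32 and 4.38 in AID+/+ leukaemia at its only probe set. AID-/- replicate 1 lay about 1 log2 unit under the other arrays of its group, and all AID+/+ values lay below the median probe set (4.89). The difference was 3.35 (SE 0.29), or 10.2-fold, with a limma adjusted p of 0.000252, and the fold is approximate because the AID+/+ values were low and no detection calls were used.

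Its paralogue Slc25a12, the aspartate-glutamate exchanger of brain and muscle, was at 9.50, 9.40 and 9.37 against 8.72, 8.95 and 8.94. It was higher by 0.55 (SE 0.10, limma adjusted p = 0.00630). Both exchangers were therefore higher at their brightest probe sets. The other probe sets of Slc25a12 differed by -0.07 and -0.07, and averaged over its 3 probe sets the gene differed by 0.14 and did not pass (adjusted p = 0.260).

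Slc25a45, placed with the amino acid carriers, was at 8.42, 8.73 and 8.70 against 7.66, 7.65 and 7.85. The groups were well separated, with a difference of 0.90 (SE 0.11, limma adjusted p = 0.00145). Slc25a38, which imports glycine for the first step of haem synthesis, was at 7.82, 7.88 and 7.93 against 7.61, 7.45 and 7.55. It was higher by 0.34 (SE 0.09, limma adjusted p = 0.0284), but adjusted p rose to 0.0712 to 0.0951 on removing AID-/- replicate 2 or 3, or AID+/+ replicate 2 or 3.

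Slc25a15, which exchanges ornithine and citrulline in the urea cycle, was the lower member. Its values were 9.61, 8.94 and 9.51 in AID-/- and 9.94, 9.91 and 9.96 in AID+/+ leukaemia, with AID-/- replicate 2 the lowest. It fell by 0.58 (SE 0.17, limma adjusted p = 0.0462), which missed the threshold once AID-/- replicate 3 or any AID+/+ array was removed (adjusted p = 0.0646 to 0.133), after median centring (0.0614) and with probe sets averaged (0.0829). Of the glutamate carriers, Slc25a22 was at 8.55, 8.69 and 8.39 against 8.71, 8.58 and 8.68 and did not pass. Slc25a18, the other, was called higher but lay near the lower end of the scale, at 4.04, 3.98 and 3.89 against 3.67, 3.57 and 3.74. Its call (difference 0.31, limma adjusted p = 0.0480) did not survive the removal of any array, with adjusted p of 0.0699 to 0.144. Slc25a44, which carries branched-chain amino acids, Slc25a29, which carries basic ones, the ornithine carrier Slc25a2 and the choline carrier Slc25a48 differed by -0.10 to 0.19 and did not pass.

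Cofactor and pyrimidine nucleotide carriers held 2 higher members out of 9. This share of 22.2% was near that of all genes, at 18.5%, or 28.1% above the median probe set. Slc25a33, which imports pyrimidine nucleotides used to build mitochondrial DNA and RNA, was at 8.91, 9.29 and 9.04 against 8.08, 8.04 and 8.28. The difference was 0.94 (SE 0.12), or 1.92-fold, with a limma adjusted p of 0.00169. Slc25a36, its paralogue with the same kind of substrate, was at 9.19, 9.19 and 9.46 against 9.34, 9.50 and 9.49; its difference of -0.16 (95% interval -0.41 to 0.08) did not pass. The intervals of the paralogues did not meet, although the difference between them was not tested.

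Slc25a32, which takes folate and FAD into the matrix, was at 8.19, 8.06 and 7.97 against 7.30, 7.46 and 7.41. It was higher by 0.68 (SE 0.09, limma adjusted p = 0.00226), and its 3 probe sets, higher by 0.54 to 0.73, were all called. Slc25a51, the carrier of NAD, was at 10.53, 10.87 and 10.81 against 10.75, 10.82 and 10.74 at its brightest probe set, a difference of -0.03. Another of its 3 probe sets was higher, at 9.67, 10.02 and 9.82 against 9.21, 9.06 and 8.99, a difference of 0.75 (SE 0.12, limma adjusted p = 0.00372 over all probe sets), and the remaining one differed by 0.02. Slc25a26, which imports S-adenosylmethionine, was at 6.98, 6.62 and 6.53 against 6.36, 6.63 and 6.45 and did not pass. Coenzyme A-related Slc25a16 and Slc25a42, the peroxisomal carrier Slc25a17 and the liver carrier Slc25a47 differed by -0.31 to 0.22, with 0 called.

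**Figure D3:**
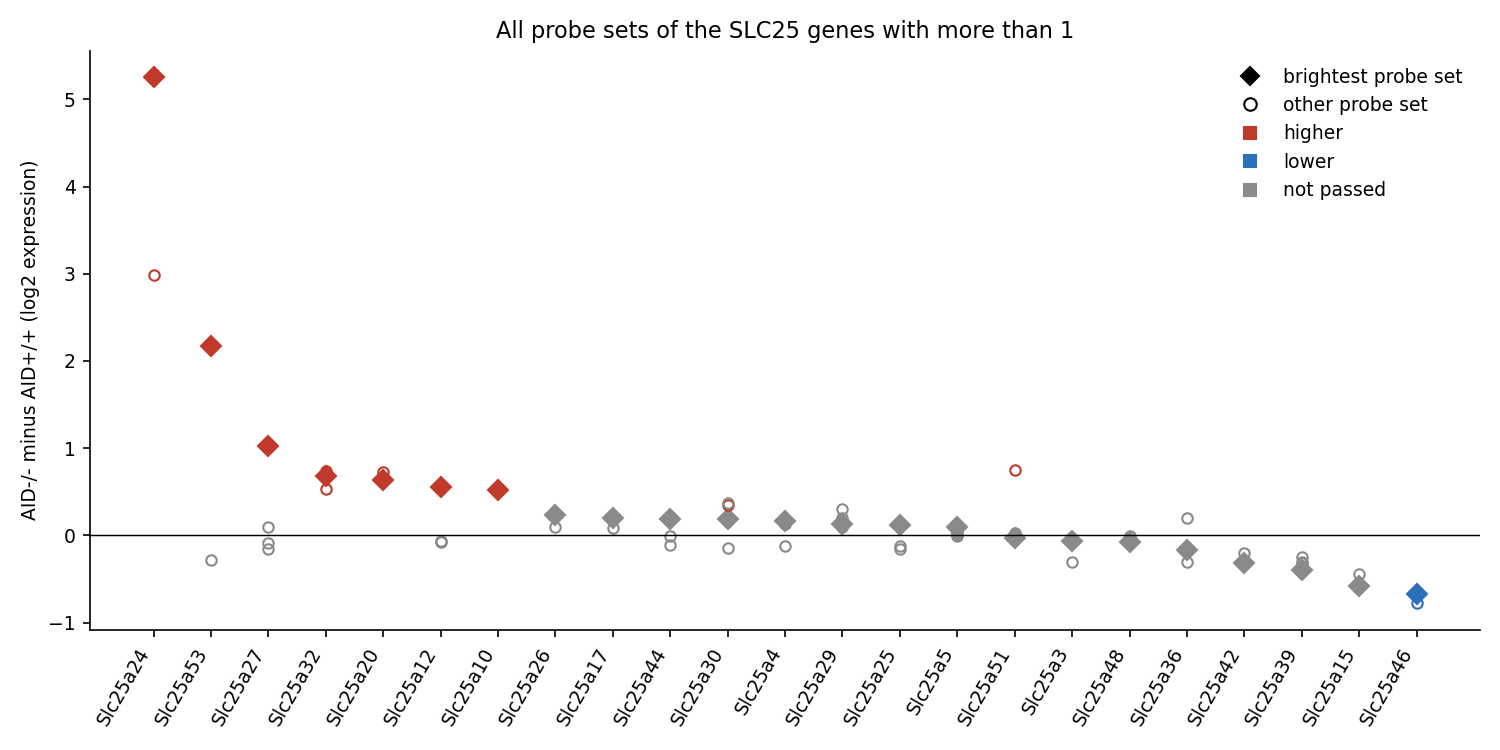
Difference at every probe set of the 23 SLC25 genes that have more than 1 (vertical axis, AID-/- minus AID+/+, log2 expression), with the brightest probe set of a gene as a diamond and the others as open circles; colours give the call in a fit over all probe sets, in which Slc25a15 did not pass. The probe sets of Slc25a24, Slc25a32, Slc25a20 and Slc25a46 share a direction, while those of Slc25a53 lie at 2.17 and -0.28 and those of Slc25a51 at -0.03 to 0.75.

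The 4 iron and glutathione carriers all had lower means in AID-/- leukaemia, and 1 of them passed. Slc25a37, or mitoferrin-1, the iron importer of developing red cells, was at 8.86, 8.94 and 8.94 against 9.30, 9.33 and 9.26. It fell by 0.38 (SE 0.08, limma adjusted p = 0.0127), with both groups tight and apart. Slc25a28, or mitoferrin-2, the importer of other cells, was at 8.32, 8.60 and 8.57 against 8.91, 8.57 and 8.66; the groups overlapped and the difference of -0.22 did not pass (95% interval -0.50 to 0.06). Slc25a39, which imports glutathione, was at 11.30, 11.47 and 11.48 against 11.93, 11.60 and 11.91. All 5 of its probe sets differed by -0.39 to -0.25. Its adjusted p of 0.0511 missed the threshold, and without AID+/+ replicate 2 it was 0.0249. The related Slc25a40 was at 7.58, 7.89 and 8.13 against 8.27, 8.45 and 8.25, a difference of -0.46 (adjusted p = 0.0662, or 0.0281 without AID-/- replicate 3). Of the 8 erythroid markers, 0 passed and 5 lay below the median probe set on every array; their summed level is given above, and their part in the result was not tested.

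Among the remaining members, 2 were higher and 1 was lower out of 6. Slc25a53, an X-linked carrier without a well-known substrate, was at 7.82, 8.10 and 8.25 against 5.96, 5.86 and 5.85. The difference was 2.17 (SE 0.12), or 4.49-fold, with a limma adjusted p of 2.15e-05. Its second probe set was at 5.22, 5.53 and 5.72 against 5.42, 6.02 and 5.86 and did not pass (difference -0.28, adjusted p = 0.380), so its 2 probe sets disagreed. Slc25a27, an uncoupling protein-like carrier best known from brain, was at 5.30, 5.64 and 6.43 against 4.60, 4.83 and 4.86. It was higher by 1.03 (SE 0.26, limma adjusted p = 0.0281) at 1 of its 4 probe sets. There, all AID+/+ values lay below the median probe set (4.89). Removing any AID+/+ array ended the call (adjusted p = 0.0746 to 0.0993), as did averaging the probe sets, where the difference was 0.22 (adjusted p = 0.257).

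Slc25a46, which lies in the outer mitochondrial membrane and takes part in mitochondrial fission and fusion, had the largest decrease in the family. It was at 9.69, 9.77 and 9.85 in AID-/- and 10.31, 10.52 and 10.49 in AID+/+ leukaemia. It fell by 0.67 (SE 0.09, limma adjusted p = 0.00243), and its other probe set fell by 0.78. The X-linked Slc25a14, another uncoupling protein-like carrier, was at 6.99, 7.05 and 7.21 against 6.72, 6.87 and 6.56 and just missed the threshold (adjusted p = 0.0519, or 0.0476 without AID+/+ replicate 2). Slc25a30 was at 9.03, 8.83 and 8.96 against 8.72, 8.72 and 8.82 and did not pass, although 1 of its 5 probe sets was higher by 0.35 (limma adjusted p = 0.0389 over all probe sets). Of the 3 X-linked carriers, 1 was called, and of the 41 autosomal ones 16 were.

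Genes beside a member on the chromosome were compared for the 4 called carriers that differed by at least 1 log2 unit, taking the 3 nearest measured genes on each side in RefSeq's order. Calls were common among all genes too, at 18.5%, or 28.1% of those above the median probe set. Around Slc25a24, 5 of 6 neighbours did not pass, among them Vav3, a guanine nucleotide exchange factor, and Prmt6, an arginine methyltransferase, was higher by 0.53 (SE 0.08). Around Slc25a13, the 3 genes on one side did not pass and the 3 on the other were lower: Sem1, a proteasome subunit, fell by 0.46, Dlx6os1, a non-coding RNA, fell by 2.47 (SE 0.18), and Dlx6, a homeobox gene, fell by 1.75 (SE 0.17). Dlx6os1 was at 3.41, 3.45 and 3.09 against 5.56, 5.61 and 6.19, opposite to Slc25a13. The gene next to Slc25a53, Zcchc18, was at 4.67, 6.30 and 4.56 against 3.59, 3.50 and 3.35, higher by 1.70 (SE 0.41), and Fam199x fell by 0.45. On both sides of Slc25a27 the adjacent genes were higher, Pla2g7, a secreted phospholipase, by 2.23 (SE 0.25) and Cyp39a1, a sterol hydroxylase, by 0.50 (SE 0.13). The other neighbours of Slc25a53 and Slc25a27 did not pass, and a shared cause for a member and its neighbours was not tested. Whether these probe sets read transcripts that run from one gene into the next was not tested.

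**Figure D4:**
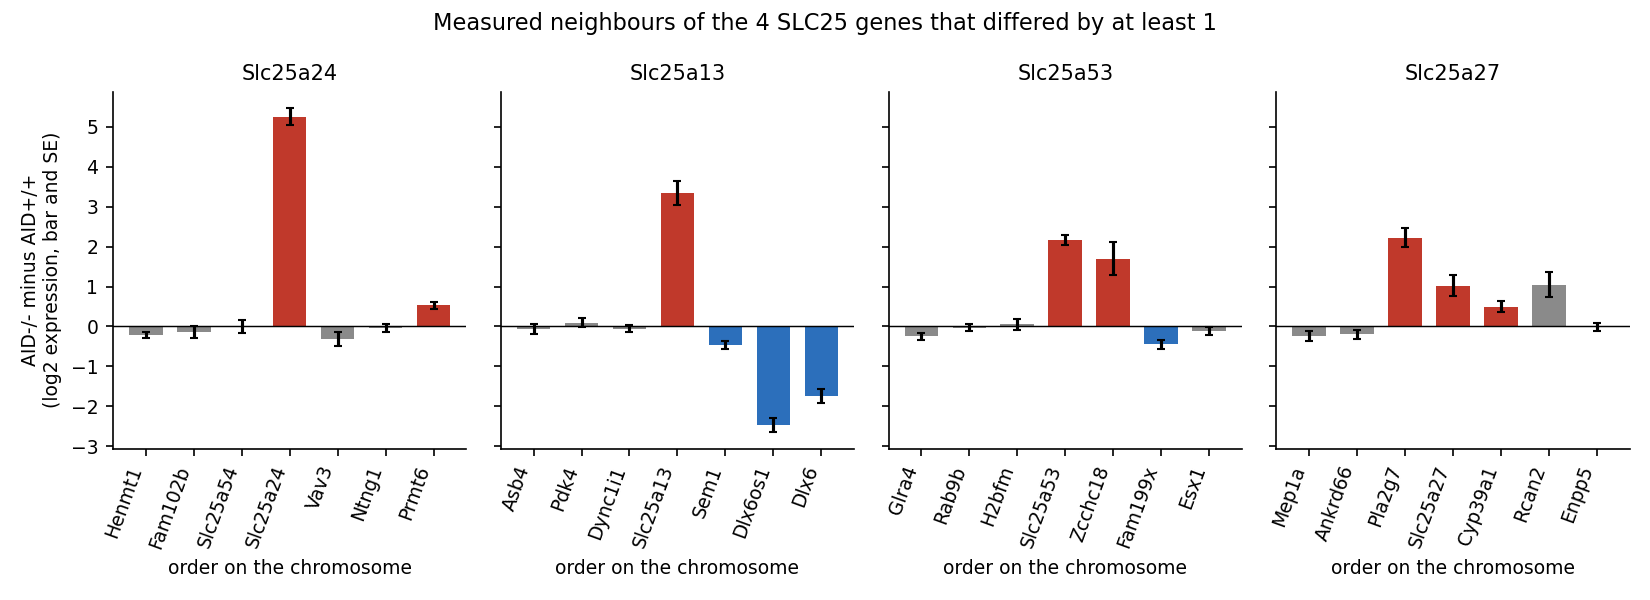
Difference (vertical axis, AID-/- minus AID+/+, log2 expression, bar and SE) of Slc25a24, Slc25a13, Slc25a53, Slc25a27 and the 3 nearest measured genes on each side of each, in chromosome order. Slc25a24 is at 5.26 with the next largest of its neighbours, Prmt6, at 0.53, whereas Slc25a13 at 3.35 lies beside lower genes (Dlx6os1 at -2.47) and Slc25a27 and Slc25a53 each adjoin a gene that was also higher. Of all genes, 18.5% were called.

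The bases just upstream of 4 carriers are shown: Slc25a24, Slc25a13, Slc25a33 and Slc25a45. Among the higher carriers with a promoter entry and a single listed start, these had the largest differences. Slc25a27 had no entry, and the choice was made after the values were seen. Each run covers the 250 bases before the start, 5′ to 3′ along the gene, from RefSeq on GRCm38.p6, with capitals marking an E-box (CACGTG, read by MYC-type factors) or a CCAAT box (CCAAT).
Slc25a24 (chr3:109122899-109123148, plus strand): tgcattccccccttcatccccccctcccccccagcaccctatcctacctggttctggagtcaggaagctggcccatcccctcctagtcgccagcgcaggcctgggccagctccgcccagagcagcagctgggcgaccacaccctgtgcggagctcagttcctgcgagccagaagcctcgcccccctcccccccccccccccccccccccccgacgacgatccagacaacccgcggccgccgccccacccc
Slc25a13 (chr6:6217174-6217423, minus strand): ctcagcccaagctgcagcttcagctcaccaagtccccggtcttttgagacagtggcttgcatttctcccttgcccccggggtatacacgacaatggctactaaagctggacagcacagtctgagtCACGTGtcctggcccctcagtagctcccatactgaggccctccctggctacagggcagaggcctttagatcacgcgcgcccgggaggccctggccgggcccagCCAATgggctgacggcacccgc
Slc25a33 (chr4:149774268-149774517, minus strand): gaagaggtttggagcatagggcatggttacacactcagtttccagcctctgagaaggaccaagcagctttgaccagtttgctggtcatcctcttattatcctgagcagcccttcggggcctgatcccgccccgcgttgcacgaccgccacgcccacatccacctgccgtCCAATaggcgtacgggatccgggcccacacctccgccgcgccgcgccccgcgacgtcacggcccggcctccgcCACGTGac
Slc25a45 (chr19:5877572-5877821, plus strand): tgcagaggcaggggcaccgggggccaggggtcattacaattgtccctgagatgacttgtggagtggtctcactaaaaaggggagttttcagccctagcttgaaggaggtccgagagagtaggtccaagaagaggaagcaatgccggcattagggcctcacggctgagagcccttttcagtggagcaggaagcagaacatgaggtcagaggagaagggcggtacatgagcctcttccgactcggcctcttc
An E-box began 125 bases before the start in Slc25a13 and 8 bases before it in Slc25a33, and a CCAAT box began 22 and 81 bases before it. Neither motif was found in Slc25a24 or Slc25a45, whose windows were 72.8% and 56.4% G and C.

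Motif letters were searched on both strands in these windows for the 34 carriers with an entry (43 windows). E-boxes were found in 18.6% of the carriers' windows and in 6.02% of all 32851 windows, and CCAAT boxes in 46.5% against 33.8%. The ETS core (CCGGAAG) was found in 14.0% against 6.91%, the core letters of the NRF1 site (TGCGCA) in 6.98% against 6.43%, and TATAAA in 2.33% against 12.4%. E-boxes stood in 3 of 12 windows of higher carriers, 1 of 2 windows of lower ones and 4 of 29 windows of those not called. By gene, that was 3 of 11 higher, 1 of 1 lower (Slc25a15) and 3 of 22 uncalled carriers. Windows of a gene can overlap, and 2 of Slc25a14 hold the same E-box. Counted by gene, 7 of 34 carriers had an E-box, against 1854 of 27025 genes. The median G and C content was 58.0% in carriers and 52.4% in all windows. A match describes letters only and says nothing of binding.

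The carriers were set beside other mitochondrial genes in 6 lists, in which 29 genes were called in all. The called share was 28.6% of the import list, 46.7% of ATP synthase, 19.0% of the Krebs cycle list, 37.5% of haem and iron-sulfur synthesis and 43.8% of other transporters, with 1 of 4 relatives, against 18.5% of all genes. Every measured gene of the import, ATP synthase and Krebs cycle lists had a group mean above the median probe set. Among all genes above it, 28.1% were called, close to the share of the import list and above that of the Krebs cycle list. Of the 14 genes that import carriers into the membranes, 4 were higher and 0 were lower, with a median difference of 0.28. Timm22, the channel that inserts carriers into the inner membrane, was higher by 0.35 (SE 0.08), and the small chaperones Timm8b and Timm13 by 0.52 (SE 0.08) and 0.36 (SE 0.08). Of the 15 ATP synthase genes, 6 were higher and 1 was lower (median 0.26): Atp5g1, a subunit of the rotor ring, was higher by 0.59 (SE 0.08), while Atp5a1, the alpha chain of the F1 part, fell by 0.37 (SE 0.08). Of 21 genes of the Krebs cycle and of pyruvate entry, 2 rose, 2 fell and the other 17 missed the threshold (median 0.06). Suclg2, a succinyl-CoA ligase chain, was higher by 0.64 (SE 0.11), and Idh3g, an isocitrate dehydrogenase chain, fell by 0.48 (SE 0.08).

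Haem and iron-sulfur synthesis genes, which use what the glycine and iron carriers deliver, included 4 that were higher and 2 that were lower out of 16 (median 0.10). Fdx1, a mitochondrial electron donor, was higher by 1.39 (SE 0.12), Alad, the second enzyme of haem synthesis, by 1.01 (SE 0.15), and Fech, which inserts the iron, by 0.64 (SE 0.12). The 2 lower ones, named after their values were seen, were Ppox, which acts just before Fech and fell by 0.41 (SE 0.10), and Iscu, a scaffold of iron-sulfur assembly, which fell by 0.37 (SE 0.10). Other inner membrane transporters included 5 higher and 2 lower out of 16 (median 0.12). Smdt1, a subunit of the calcium uniporter, was higher by 0.54 (SE 0.11), and Micu3, a regulator of that uniporter, fell by 0.73 (SE 0.13) where all its values were low. Of 4 relatives of the family under other symbols, Mtch2, an insertase of the outer membrane, was higher by 0.44 (SE 0.09), and Mtch1, Ucp1 and Ucp3 did not pass. With 1 array left out, the 29 calls became 15 to 23: 19 without AID-/- replicate 2 or 3, 17 without AID+/+ replicate 2 and 15 without AID+/+ replicate 3. The called share of all genes was also lower in those 4 fits, at 15.5%, 14.0%, 13.3% and 11.8%.

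**Figure D5:**
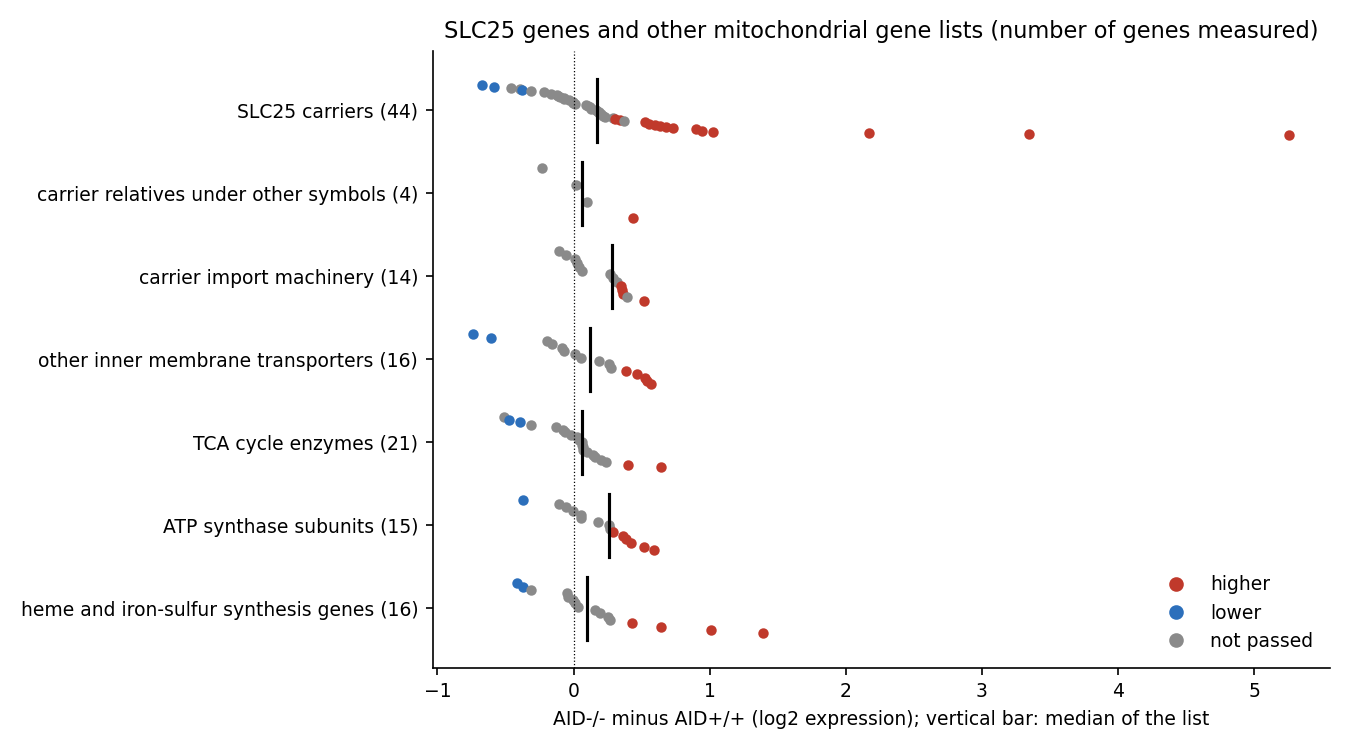
Difference of each gene (horizontal axis, AID-/- minus AID+/+, log2 expression) in the SLC25 family and 6 other mitochondrial lists; each point is a gene, coloured by its call, and the vertical bar is the list's median. Medians lie between 0.06 and 0.28, and the points past 2 are Slc25a24, Slc25a13 and Slc25a53.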

How the data were processed

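Biotinylated cRNA from total RNA was read on 6 Affymetrix arrays. The deposited table holds log2 expression for each array. RMA and Partek appear, with no version, in the submitters' processing notes, and other steps are not given in the sources used here. Array medians lay between 4.85 and 4.90. Scale and direction follow from RMA on single-colour arrays; whether a further centring was applied stays unknown. No detection calls were used. The number of arrays limits the precision.

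Of 45101 probe sets, 64 controls were left out. In the platform annotation, 34945 had 1 symbol, 932 several and 9160 none; Entrez identifiers linked these to current RefSeq symbols (GRCm38.p6) for 34741 probe sets and all 44 members. Each gene was represented by its brightest probe set, judged by the average of all arrays.

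Differences (AID-/- minus AID+/+) came from limma 3.58.1 under R 4.3.3, using lmFit and eBayes with group as the only term, two-sided, with Benjamini-Hochberg adjustment over 18193 genes and a threshold of 0.05; moderated SEs and 95% intervals are given. The fit was tested on simulated data. The members and gene lists were chosen with earlier results of these data known. Named with array values are all called members, their paralogues and the main ADP/ATP, phosphate, iron and glutathione carriers; up to 4 genes with the smallest p were eligible in each other list. Promoter motifs were chosen after the values were seen. Deviations from the group means correlated at -0.05, -0.07 and 0.03 between arrays of one number, and no pairing was used. Alternatives were other normalizations, filters, moderation, weights, thresholds, probe set rules, a replicate block, leaving out chromosomes X and Y, and leaving out each array.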

Additional observations from a re-analysis of the deposited data

How the results depend on the processing

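Across 19 alternatives, 8 of the 17 calls held in every one, 0 of the 17 changed direction, and 11 held whichever array was left out. The median over the members stayed within 0.12 to 0.20. Called members numbered 11 without variance moderation (9 higher, pathway lists 15) and 10 at a threshold of 0.01 (9 higher, 1 lower, pathway lists 9). Of all genes, 8.99% were called without moderation and 9.65% at 0.01, against 18.5% in the main fit. The lower members numbered 5 both with quantile normalization and at a threshold of 0.10, where 18.4% and 24.9% of all genes were called. With 1 array left out, 11 to 17 members were called, 9 to 14 higher and 2 to 3 lower, and 15 to 23 genes of the pathway lists. In these fits, 11.8% to 17.7% of all genes were called. With the replicate block, 15 members were called (12 higher, 3 lower) and 19 pathway genes, as were 14.8% of all genes. The block fits more terms to the same 6 arrays. Only 1 of 6 arrays correlated best with its own number, which shows no pairing but, with 3 arrays per group, cannot exclude one. The cause of the lower counts was not tested. Members near 0 that were not called changed sign: Slc25a34 was at 0.031 with quantile normalization, 0.027 with median centring and 0.044 with array weights, and -0.059 to 0.069 with 1 array left out. Slc25a54 was at 0.037 and 0.026 with these normalizations and -0.18 to 0.10 with 1 array left out. Slc25a51 was at 0.0070 with array weights, 0.25 with probe sets averaged and -0.10 to 0.072 with 1 array left out. Slc25a25 was at -0.052 with probe sets averaged and -0.013 to 0.29 with 1 array left out; Slc25a41 ranged from -0.21 to 0.027 and Slc25a31 from -0.052 to 0.054. Low signal limits Slc25a18, Slc25a31 and Slc25a41, among others.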
